A study of Mus musculus with 24 samples.

Results

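Reactive astrocyte genes are transcripts whose rise in astrocytes marks the response of these cells to injury, inflammation or other disturbance of the brain. The 10 genes described here are Gfap, Vim, Serpina3n, Lcn2, Cd44, Osmr, Hspb1, Lgals1, S100a10 and Fabp7. They were taken by symbol from the 54235 features of the deposited matrices, and all 10 were present once. They were followed in single cells of primary motor cortex and of dorsal striatum, in astrocytes, in other glia and in the remaining cell classes, cell by cell and pool by pool. The list was drawn up with earlier results of these data known, among them values of motor cortex astrocytes in the early stage. The changes of these cells from control to early and from early to late are therefore a description here and carry no test. The fits between regions and between hemispheres also hold these pools, so their p-values for the members are not independent evidence, and each is given without the early pools or without early pool 2 as well.

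The mice carried an activity-dependent recombinase over the Ai9 reporter, Fos-CreER::Ai9 for motor cortex and Arc-CreER::Ai9 for dorsal striatum, so region and driver line cannot be told apart. Both lines were given 4-hydroxytamoxifen (4-OHT), the drug that lets the recombinase act in cells in which the driver is on. The early group was trained for 2 days on forelimb reaching, the late group for 8 days, and the control group received 4-OHT without training. Tissue was taken 3 days after labelling. Each library held cells from one hemisphere of 2 mice (1 male and 1 female by the labels), and both hemispheres of the same mice form 1 pool, so there were 2 pools for each region and stage. Striatal control pool 1 is the exception and was analysed from its left hemisphere alone. The pool is the replicate. The numbers 1 and 2 only name the pools of a group, and p-values measure the spread between pools. Ages were not given in the sources used here.

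Astrocytes are the glial cells that take up transmitter, buffer potassium and contact blood vessels. When disturbed they enlarge, raise the intermediate filament proteins GFAP and vimentin and switch on secreted, stress and adhesion genes. Signalling through receptors of the interleukin-6 family, of which the oncostatin M receptor (Osmr) is one, and the transcription factor STAT3 is a known route to Gfap. Resident cortical astrocytes hold little Gfap, while those of white matter and of the ventricular wall hold much.

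In the GRCm38 annotation the filament genes Gfap (ENSMUSG00000020932) and Vim (ENSMUSG00000026728) lie at chr11:102887336-102900912 and chr2:13573927-13582826. The secreted members Serpina3n and Lcn2 lie at chr12:104406729-104414329 and chr2:32384633-32388252, and the receptors Cd44 and Osmr at chr2:102811141-102901665 and chr15:6813577-6874969. Of the remaining members, Hspb1 lies at chr5:135887919-135889563, Lgals1 at chr15:78926725-78930465, S100a10 at chr3:93555080-93564643 and Fabp7 at chr10:57784881-57788450.

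Of the 10 members, 8 had an entry in the RefSeq promoter table for GRCm38.p6 (250 bases before the start site to 50 after it). The promoters of Gfap and Vim are shown because these filament genes were carried by the same cells more often than the product of their shares, as described later. The Gfap window is chr11:102897151-102897450 on the minus strand and the Vim window is chr2:13574061-13574360 on the plus strand, both written 5′ to 3′. Capitals mark a match to the STAT motif TTCNNNGAA.
Gfap: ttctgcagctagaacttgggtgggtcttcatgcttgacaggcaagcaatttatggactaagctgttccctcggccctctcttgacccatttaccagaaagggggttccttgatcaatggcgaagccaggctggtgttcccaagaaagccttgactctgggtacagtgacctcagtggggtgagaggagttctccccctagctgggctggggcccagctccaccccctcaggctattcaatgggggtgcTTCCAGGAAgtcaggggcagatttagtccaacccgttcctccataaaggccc
Vim: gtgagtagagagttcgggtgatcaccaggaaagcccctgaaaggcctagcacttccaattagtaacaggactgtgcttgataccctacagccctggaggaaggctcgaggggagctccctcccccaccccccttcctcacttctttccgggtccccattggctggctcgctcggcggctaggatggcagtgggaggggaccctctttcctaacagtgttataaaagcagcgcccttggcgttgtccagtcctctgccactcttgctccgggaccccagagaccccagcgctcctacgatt
Of the 8 promoters, that of Gfap held the STAT motif, as TTCCAGGAA beginning 2 bases before the start site, and the other 7 did not. Among all 32851 RefSeq promoters of this length, 2726 (8.3%) held it. The AP-1 motif TGANTCA was found in 2565 promoters (7.81%) and, among the 8, in that of Osmr alone, as TGATTCA. Both motifs were searched on both strands and do not overlap here. The matches are descriptions of the letters and not of binding.

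The 23 libraries analysed held 127901 barcodes, 541 to 10030 per library, and 5260446 to 30470621 unique molecular identifiers (UMIs, the counted molecules) per library. After filters 98612 cells stayed, 47985 from motor cortex and 50627 from striatum, with medians of 1967 to 5520 UMIs per cell in a library. Barcodes were compared between all 24 libraries of the labels. Sharing placed control pool 1 and late pool 1 of each region in one class (A) and the other 8 pools in another (B). No 2 libraries shared more than 148 barcodes, or more than 1.55% of the barcodes of the smaller one. The labels name 2 kit versions without tying them to libraries, and the 2 classes entered the fits as a covariate.

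Astrocyte-like clusters, named from Aqp4, Slc1a2, Slc1a3, Gja1 and 8 further markers, held 3072 cells in motor cortex and 2104 in striatum. In motor cortex they numbered 168 and 600 in the control pools, 221 and 164 in the early pools and 1709 and 210 in the late pools. In striatum the numbers were 258 and 451, 446 and 302, and 119 and 528. The summed level of the 12 astrocyte markers ranged from 20080 to 29440 CPM (the UMIs of a gene scaled to the total of all UMIs in those cells) in the striatal pools and from 21340 to 28570 in 5 motor cortex pools. Motor cortex control pool 1 stood apart at 8879, with a microglia marker sum of 4237, against 101.3 to 587.5 in the other 5 pools. Of its 168 cells, 64 came from a small cluster with a weak astrocyte score (72 cells in all), which supplied 66.4% of the astrocyte-like UMIs of that pool and carried no Gfap. A striatal cluster of 1059 cells led by Thbs4 and Gfap had 9 astrocyte markers and 4 neural stem cell markers and took no cell type name under the naming rule. It is called the Thbs4-Gfap cluster below and was kept apart from the astrocyte-like cells.

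The label of the list fits 1 of its members by level. Gfap, the main filament protein of mature astrocytes, was highest in astrocyte-like cells among the 16 classes of motor cortex, with 215.5 ± 438 CPM (SD, n = 6 pools, median 34.05). In striatum it was highest in the Thbs4-Gfap cluster, with 421.5 ± 145 CPM, followed by ependymal-like cells (32.3 ± 12.9) and astrocyte-like cells (21.2 ± 5.95), and these last 2 overlapped. Gfap was carried, meaning that at least 1 UMI was counted, by 25.6 ± 4.97% of cells in the Thbs4-Gfap cluster, 10.1 ± 5.05% of ependymal-like cells and 3.28 ± 1.03% of striatal astrocyte-like cells. In motor cortex 86.1% of the 646 Gfap UMIs lay in astrocyte-like cells. In striatum 77.5% of the 1256 Gfap UMIs lay in the Thbs4-Gfap cluster and 7.17% in astrocyte-like cells. Microglia-like cells, which should lack Gfap, carried it in 0.166 ± 0.16% of motor cortex cells and 0.108 ± 0.0924% of striatal cells, at median depths of 1758 and 1943 UMIs against 1696 and 1883 in astrocyte-like cells.

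**Figure D1:**
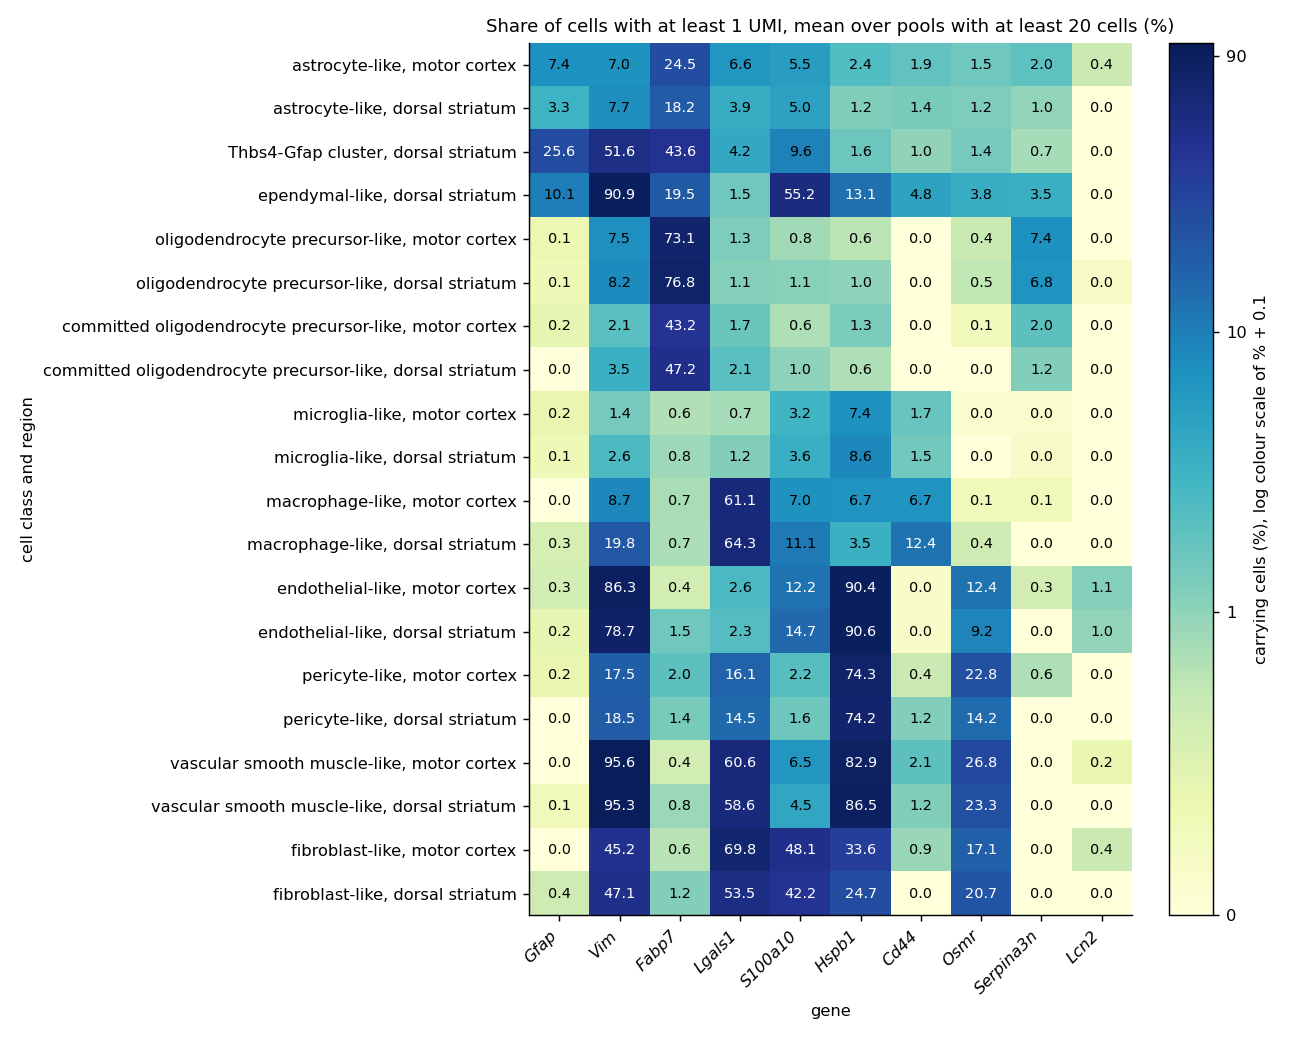
Mean share of cells with at least 1 UMI of each of the 10 genes (columns) in glial, vascular and ependymal classes of each region (rows), in percent, over pools with at least 20 cells of the class; colour follows the share on a log scale. Gfap was carried by 25.6% of cells in the Thbs4-Gfap cluster, while Hspb1 was carried by 90.4% and 90.6% of endothelial-like cells and Fabp7 by 73.1% and 76.8% of oligodendrocyte precursor-like cells.

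The other 9 members had their highest level outside astrocyte-like cells in both regions. Vim (vimentin, an intermediate filament of many non-neuronal cells) reached 3771 ± 661 CPM in motor cortex and 3246 ± 338 CPM in striatal vascular smooth muscle-like cells, and stood at 2246 ± 948 and 1525 ± 236 CPM in endothelial-like cells. Hspb1 (the small heat shock protein HSP27) was carried by 90.4 ± 4.94% and 90.6 ± 5.89% of endothelial-like cells. Fabp7, the brain fatty acid binding protein of radial glia and their descendants, was carried by 73.1 ± 7.75% and 76.8 ± 7.08% of oligodendrocyte precursor-like cells, and in motor cortex these held 74.9% of its 14532 UMIs. Lgals1 (galectin-1, a sugar-binding protein) led in fibroblast-like cells of motor cortex (834.5 ± 376 CPM) and macrophage-like cells of striatum (700.2 ± 185 CPM), with overlap between these and smooth muscle-like cells in each region. S100a10, the annexin A2 partner p11, was carried by 55.2 ± 14.5% of ependymal-like cells, 46.3 ± 6.77% of striatal neuroblast-like cells and 34.5 ± 6.32% of motor cortex glutamatergic neurons. Shares by class were not thinned and rise with depth. The largest glutamatergic cluster of motor cortex had a median of 7782 UMIs, against 1576 in the largest astrocyte-like cluster.

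Osmr was carried by 26.8 ± 8.23% and 23.3 ± 9.4% of vascular smooth muscle-like cells, against 1.54 ± 1.14% and 1.24 ± 0.625% of astrocyte-like cells of motor cortex and striatum. Cd44, the hyaluronan receptor, was carried by 12.4 ± 7.46% of striatal macrophage-like cells and by 1.37 ± 0.797% of striatal astrocyte-like cells, and no oligodendrocyte precursor-like cell in either region carried it (0 of 5466 and 0 of 2631). Serpina3n, a secreted serine protease inhibitor, was highest in oligodendrocyte precursor-like cells of both regions (7.40 ± 0.9% and 6.79 ± 2.33% carried it), above 1.96 ± 2.47% and 0.955 ± 0.401% of astrocyte-like cells. Lcn2 (lipocalin-2, a secreted iron-siderophore carrier) was seen in 1.15 ± 1.11% and 0.973 ± 0.317% of endothelial-like cells, which held 76.2% of its 101 UMIs in motor cortex. These class levels compare classes of the same libraries and are given without a test.

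Within motor cortex astrocyte-like cells, Gfap was carried by 3.57% and 5.50% of cells in the control pools, 11.3% and 15.9% in the early pools and 4.62% and 3.33% in the late pools. The 95% Wilson intervals were 7.78 to 16.2% and 11.1 to 22.2% for the early pools and reached at most 7.62% in the other 4 pools. Both early pools thus lay above the other 4. In control pool 1 the small cluster, which carried no Gfap, lowered the share, and the other 104 cells of that pool had Gfap in 5.77%, still below both early pools. After thinning every cell to 1000 UMIs at random the shares were 2.98% and 2.33%, 5.88% and 13.4%, and 3.22% and 2.86%. In another random draw, the one used for the test between regions, they were 2.38% and 2.33%, 6.33% and 14.0%, and 3.04% and 2.38%, and both early pools were the highest in each draw. The intervals and the limits for counts of 0 cover counting error only.

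**Figure D2:**
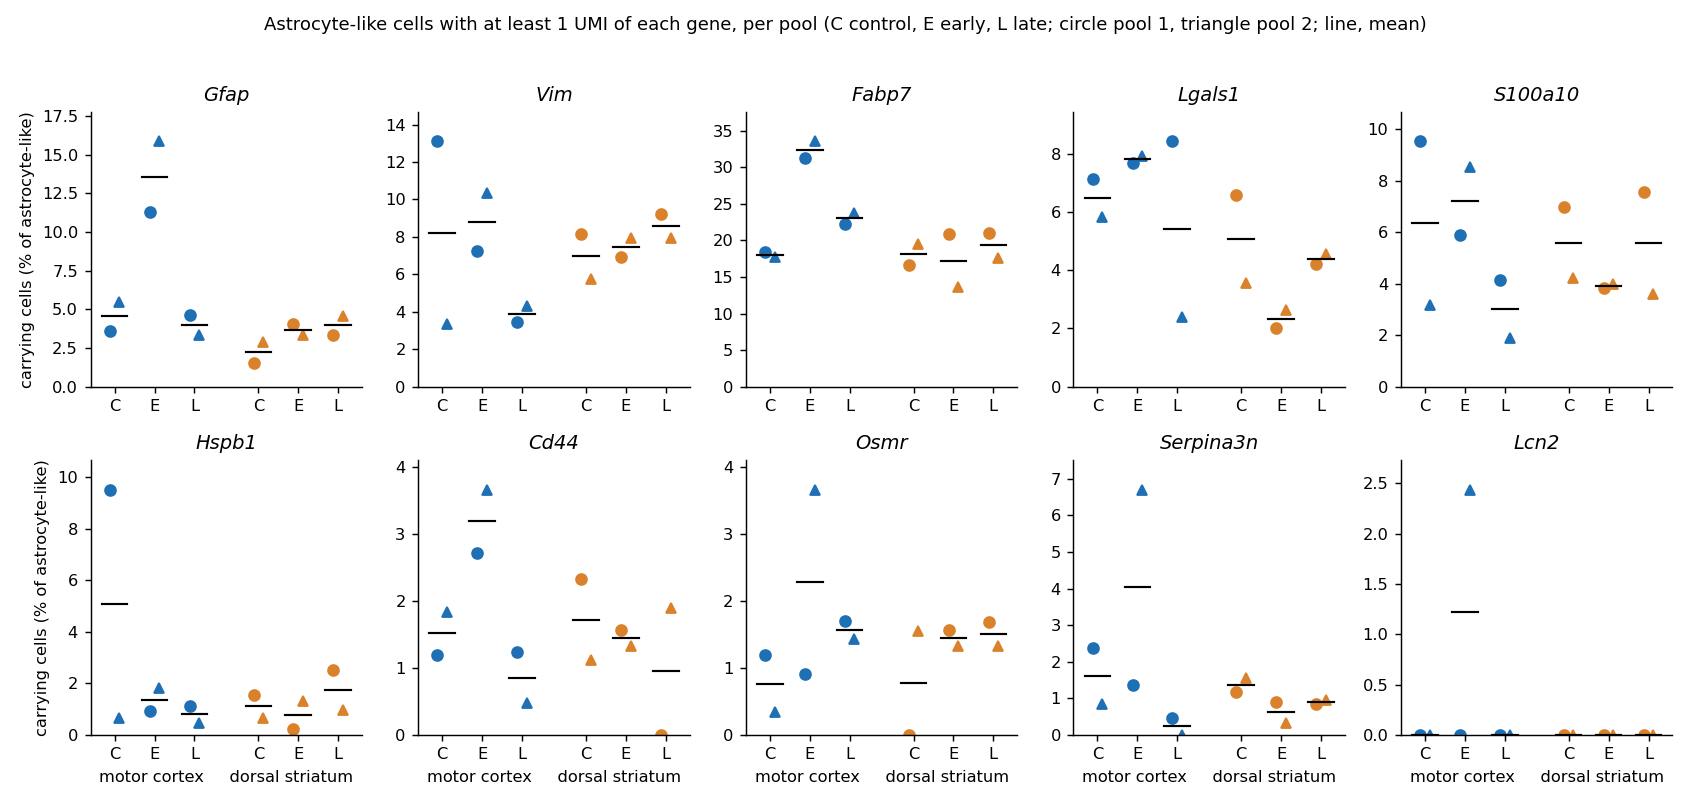
Share of astrocyte-like cells with at least 1 UMI of each gene in each of the 12 pools (circle, pool 1; triangle, pool 2; black line, mean of the 2 pools; blue, motor cortex; orange, striatum), in percent, each panel with its own axis from 0. Gfap and Fabp7 were highest in both early pools of motor cortex, while Serpina3n and Lcn2 stood out in early pool 2 and Hspb1 in control pool 1.

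The level of Gfap separated the 2 early pools. It stood at 16.4 and 28.3 CPM in the control pools, at 72.1 CPM in early pool 1, at 1108 CPM in early pool 2 and at 36.9 and 31.2 CPM in the late pools. Without the small cluster control pool 1 stood at 48.9 CPM, above both late pools. Vim was 78.4 and 16.0 CPM in the control pools, 32.8 and 1268 CPM in the early pools and 24.2 and 28.6 CPM in the late pools. Early pool 1 thus lay within the range of the control pools for Vim. The share of cells with Vim was 7.24% and 10.4% in the early pools, 13.1% and 3.33% in the control pools and 3.45% and 4.29% in the late pools, and the stages overlapped. Without the small cluster, in which 15 of 64 cells carried Vim, control pool 1 stood at 6.73%, and both early pools were then the highest in these unthinned shares. By level control pool 1 then stood at 81.4 CPM, still above early pool 1. After thinning to 1000 UMIs, with the small cluster kept, early pool 1 had Vim in 4.07% of cells and the late pools in 2.05% and 2.86%. In another random draw early pool 1 was at 2.26%, below the late pools at 2.46% and 2.38%.

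A few cells held most of these molecules in early pool 2. The 5 cells with the most UMIs of a gene held 83.2% of its Gfap, 88.9% of its Vim, 89.8% of its Lgals1 and 69.4% of its Fabp7 UMIs among 164 cells. Fabp7 stood at 74.7 and 95.1 CPM in the control pools, 170.3 and 924.6 CPM in the early pools and 163.6 and 153.2 CPM in the late pools, and without the small cluster control pool 1 stood at 141.1 CPM. Its carriers made up 18.5% and 17.7%, 31.2% and 33.5%, and 22.3% and 23.8% of cells, without overlap between stages, and after thinning 10.1% and 8.17%, 14.5% and 23.2%, and 14.0% and 14.3% (in the other draw 11.9% and 8.33% in the control pools, 15.8% in early pool 1 and 13.9% and 12.4% in the late pools, with early pool 2 again the highest). Microglia-like cells carried Fabp7 in 0.633 ± 0.25% of motor cortex cells.

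**Figure D3:**
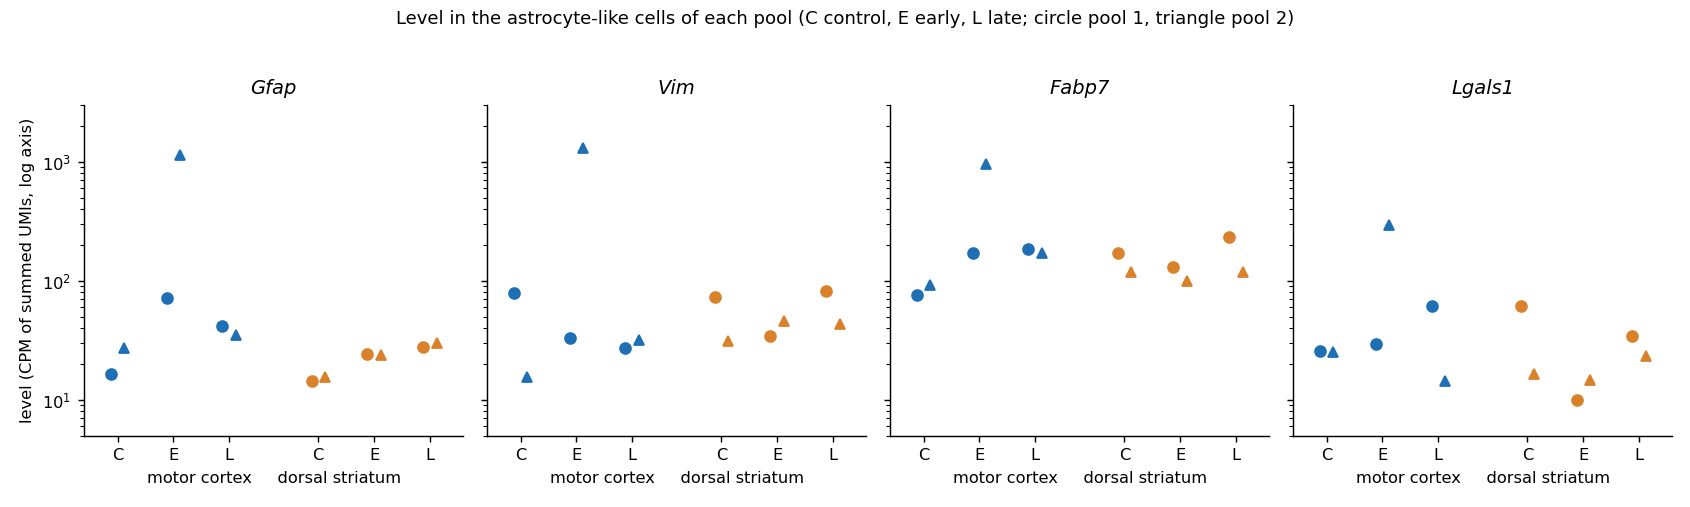
Level of Gfap, Vim, Fabp7 and Lgals1 in the astrocyte-like cells of each pool, as CPM of UMIs summed over cells, on a log axis (circle, pool 1; triangle, pool 2). Motor cortex early pool 2 is the highest point in all 4 panels, at 1108, 1268, 924.6 and 282.5 CPM.

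The fitted log2 change from control to early in motor cortex astrocyte-like cells was 4.63 (SE 0.95) for Gfap, 4.74 (SE 1.27) for Vim, 2.92 (SE 0.79) for Lgals1, 2.69 (SE 0.66) for Fabp7, 2.54 (SE 0.74) for S100a10 and 1.51 (SE 1.08) for Hspb1. From early to late these 6 genes had changes of -3.80 (SE 1.01), -5.27 (SE 1.21), -2.47 (SE 0.90), -1.60 (SE 0.67), -3.03 (SE 0.84) and -4.43 (SE 1.31). Over the 8703 genes of this fit the median changes were 0.02 and -0.0066. Without early pool 2 the change from control to early was 1.61 (SE 0.65) for Gfap, 1.02 (SE 0.62) for Fabp7, 0.62 (SE 0.83) for S100a10, 0.61 (SE 0.72) for Lgals1, 0.45 (SE 0.75) for Vim and -0.19 (SE 1.65) for Hspb1. Between early pool 1 and control pool 2, which shared a sequencing batch, the log2 CPM difference was 1.33 for Gfap, 0.98 for Vim and 0.88 for Fabp7. These contrasts chose members of the list and are given with no test. In the bulk of cells summed here, more carrying cells and more RNA per carrying cell cannot be told apart from the sum alone. The share of carriers beside it counts cells with at least 1 UMI, which more RNA per expressing cell can also raise.

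The remaining members were scarce in astrocyte-like cells of motor cortex. Lgals1 was carried by 7.14% and 5.83% of cells in the control pools, 7.69% and 7.93% in the early pools and 8.43% and 2.38% in the late pools, and the stages overlapped. S100a10 was carried by 9.52% and 3.17%, 5.88% and 8.54%, and 4.15% and 1.90%. Without the small cluster control pool 1 stood at 2.88% for S100a10 (3 of 104 cells), below both early pools in unthinned shares. After thinning early pool 1 had S100a10 in 2.26% of cells in one draw and 1.36% in the other. Late pool 1 was above it in both, at 2.28% and 2.63%. Oligodendrocyte precursor-like cells of motor cortex, a background for both, carried Lgals1 in 1.26 ± 0.939% and S100a10 in 0.784 ± 0.384% of cells at a median of 1828 UMIs. Cd44 was carried by 1.19% and 1.83%, 2.71% and 3.66%, and 1.23% and 0.476%, and Osmr by 1.19% and 0.333%, 0.905% and 3.66%, and 1.70% and 1.43% of cells. Without the small cluster control pool 1 had Lgals1 in 4 of 104 cells (3.85%) and Cd44 and Osmr in none. Cd44 was thus highest in both early pools in unthinned shares, by 6 cells in each, and Osmr in early pool 2 alone. After thinning Cd44 was again highest in both early pools in one draw (2.26% and 3.05%). In the other draw early pool 2 had Cd44 in 0.61% of cells, below control pool 2 (1.0%) and late pool 1 (0.995%).

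Serpina3n and Lcn2, the secreted members, were marked by early pool 2. Serpina3n was carried by 2.38% and 0.833% of cells in the control pools, 1.36% and 6.71% in the early pools and 0.468% and 0.0% in the late pools. Its level was 7.29 and 3.63 CPM, 4.91 and 128.4 CPM, and 2.76 and 0 CPM. Without the small cluster control pool 1 had Serpina3n in 1 of 104 cells (0.962%). Lcn2 was found in 4 of 164 cells of early pool 2 (13 UMIs, 41.7 CPM) and in no astrocyte-like cell of the other 11 pools of both regions. A count of 0 allows a share of up to 0.176% in the 1709 cells of late pool 1, but of up to 2.52% in the 119 cells of striatal late pool 1. These limits are for cells with a UMI at this depth and not for cells that express the gene.

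Hspb1 was marked by another pool. It was carried by 9.52% of cells in motor cortex control pool 1 and by 0.667%, 0.905%, 1.83%, 1.11% and 0.476% in control pool 2, early pools 1 and 2 and late pools 1 and 2. In the oligodendrocyte precursor-like cells it was carried by 0.553 ± 0.408%, and late pool 2 alone among the 6 astrocyte-like pools was below that mean. Of the 16 carriers in control pool 1, 13 belonged to the small cluster with few astrocyte markers, and the other 104 cells had 3 carriers (2.88%) with 13 UMIs. By level Hspb1 was at 79.5 CPM in the small cluster and at 70.6 CPM in those 104 cells.

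Late training against control was tested in motor cortex with edgeR's quasi-likelihood test over the 6 pools of that region. Of 8703 genes, 50 passed a Benjamini-Hochberg adjusted p of 0.05 (0.575%), and of the 6 members tested (Gfap, Vim, Fabp7, Lgals1, S100a10 and Hspb1) none passed. At an unadjusted p under 0.05 there was 1 member, beside 720 of all genes. DESeq2 also called 0 members. Hspb1 stood at a log2 change of -2.92 (SE 0.81, edgeR adjusted p = 0.151), and at -2.83 (SE 0.86, edgeR adjusted p = 0.234) without the small cluster. It stood at 0.02 without control pool 1, at 0.02 without late pool 1 and at -0.27 (SE 0.57) with presumed doublets kept. Between late pool 1 and control pool 1, which shared a sequencing batch, the log2 CPM difference was -2.91 for Hspb1, -1.46 for Vim and 1.21 for Gfap. It was called without control pool 2 (-3.09, with Fabp7 and Lgals1, where 17.5% of all genes were called), a fit that leaves control pool 1 as the only control and takes the spread from the other groups. It was also called without early pool 1 (-2.76, edgeR adjusted p = 0.0306, 3.57% of genes) and with no filter on low counts (-2.72, edgeR adjusted p = 0.0118, 2.51%). Gfap had a log2 change of 0.83 (SE 0.89, edgeR adjusted p = 0.877), and of 0.06 (SE 0.45) without the small cluster.

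In striatal astrocyte-like cells Gfap was carried by 1.55% and 2.88% of cells in the control pools, 4.04% and 3.31% in the early pools and 3.36% and 4.55% in the late pools. Its level was 13.1 and 14.98 CPM, 23.1 and 22.1 CPM, and 26.5 and 27.5 CPM, so by level the 3 stages did not overlap in this order. The order did not hold in shares after thinning to 1000 UMIs. These were 1.16% and 1.55%, 2.91% and 1.32%, and 3.36% and 3.22% in one draw. In the draw of the region test they were 0.775% and 1.11%, 2.91% and 2.65%, and 0.84% and 1.7%. The log2 change in the level of Gfap was 0.62 (SE 0.43, edgeR adjusted p = 0.962) from control to early and 0.92 (SE 0.42, edgeR adjusted p = 0.959) from control to late. The smaller unadjusted p, for late against control, was 0.0423. The late change rests on 5 and 15 Gfap UMIs in the control pools and 4 and 31 in the late pools. Within the sequencing batch that held late pool 1 and control pool 1 the log2 CPM difference was 0.82, and between early pool 1 and control pool 2 of another batch it was 0.58.

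None of the 6 members tested passed in any of the 3 striatal stage comparisons by edgeR, where 0.0103% of 9670 genes passed for early against control, 0.0% for late against control and 0.0103% between the trained stages. At an unadjusted p under 0.05 by edgeR the counts of members were 0, 1 and 0, beside 519, 467 and 463 of the 9670 genes. DESeq2 called none of the members. The median log2 change of the 6 members was 0.19 from control to early and 0.25 from control to late, beside -0.0003 and -0.0074 over all genes. Vim was carried by 5.76% to 9.24% of cells, Fabp7 by 13.6% to 21.0%, Lgals1 by 2.02% to 6.59% and S100a10 by 3.598% to 7.56%, and for each the pools of 2 or more stages overlapped. Serpina3n stayed at 0.331% to 1.55%, Cd44 at 0.0% to 2.33%, Osmr at 0.0% to 1.68% and Hspb1 at 0.224% to 2.52%. 

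**Figure D4:**
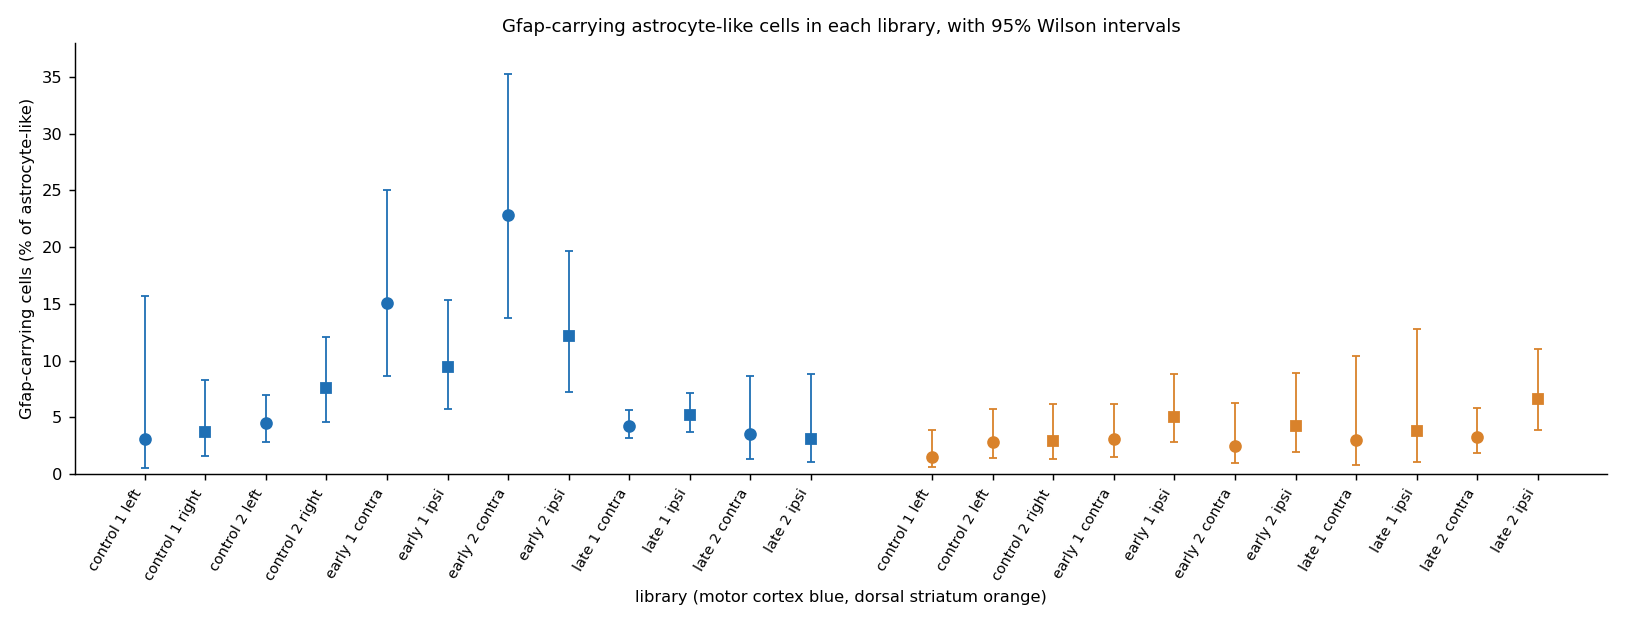
Share of astrocyte-like cells with at least 1 Gfap UMI in each of the 23 libraries, in percent, with 95% Wilson intervals (circles, left or contralateral; squares, right or ipsilateral; blue, motor cortex; orange, striatum). The 4 early libraries of motor cortex lie between 9.46% and 22.8%, and the other 19 libraries at 7.58% or below.

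By hemisphere, the early pools of motor cortex had Gfap in 15.1% of 73 contralateral and 9.46% of 148 ipsilateral cells (pool 1), and in 22.8% of 57 contralateral and 12.1% of 107 ipsilateral cells (pool 2). In the late pools the shares were 4.26% and 5.19%, and 3.51% and 3.12%, in the same order. In a fit of the 4 trained pools that held a term for each pool, the log2 change of contralateral against ipsilateral was 1.116 (SE 0.27, edgeR adjusted p = 0.258) for Gfap, 0.73 (SE 0.30) for Lgals1 and 0.51 (SE 0.19) for Fabp7. Of these 3 members tested, none was called, beside 0.0791% of 3795 genes. Without early pool 2 the change in Gfap was -0.24 (SE 0.25). In DESeq2 it was 0.32 (SE 0.66) for Gfap and 0.10 (SE 0.89) for Lgals1, and under the stricter cell filter Fabp7, the 1 member tested there, stood at 0.10 (SE 0.20). With early pool 2 in the fit, Gfap was called without late pool 1 (1.62, 0.0581% of genes), and together with Vim without late pool 2 (0.223%) and with no filter on low counts (0.0805%). In striatum 2 members were tested between hemispheres and none was called, beside 0.0% of 6114 genes, where 236 genes had an unadjusted p under 0.05.

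The regions were compared over all 12 pools with stage and kit class in the fit. Gfap stood at 13.1 to 27.5 CPM in the 6 striatal pools (median 22.6) and at 16.4 to 1108 CPM in the 6 motor cortex pools (median 34.05), and the ranges overlapped. Of 7989 genes, edgeR called 385 (4.82%), and of the 5 members tested none. Gfap was lower in striatum by a log2 change of -2.43 (SE 0.76, unadjusted p = 0.00518, edgeR adjusted p = 0.0834). The other 4 members had changes of -1.22 (Lgals1), -1.10 (Vim), -0.57 (Fabp7) and -0.11 (S100a10). The median of the 5 members was -1.10, beside -0.0034 over all genes. DESeq2 called 5.47% of the 7989 genes and also 0 members, with Gfap at -1.74 and an unadjusted p of 0.0379.

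The size of this difference rested on motor cortex early pool 2. Without it Gfap stood at -0.90 (SE 0.25, edgeR adjusted p = 0.0526), while Vim stood at 0.63, S100a10 at 0.69 and Fabp7 at 0.06, and the median of the 5 members at 0.06. Since the list was chosen partly from the early pools of motor cortex, the regions were also compared without the early pools of either region. Gfap then stood at -0.54 (SE 0.30, edgeR adjusted p = 0.52), Vim at 0.74, S100a10 at 0.88, Fabp7 at 0.31 and Lgals1 at 0.02, with 0 members and 1.3% of 9011 genes called. Gfap passed the threshold without motor cortex control pool 1 (-2.70, edgeR adjusted p = 0.00557, 10.5% of genes called), without early pool 1 (-2.65, edgeR adjusted p = 0.0422, 3.31%), in the class B pools alone (-3.01, edgeR adjusted p = 0.012, 7.78%) and without the small cluster (-2.71, edgeR adjusted p = 0.00277, 10.2%). With no filter on low counts Gfap, Vim, Lgals1 and Lcn2 were called (3.69% of 23254 genes). All Lcn2 UMIs of astrocyte-like cells lay in motor cortex early pool 2. Each fit with a called member kept that pool, so the calls are not independent evidence of a region difference.

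Counting the Thbs4-Gfap cluster among the astrocytes turned the direction. This cluster came from striatum alone and was picked with Gfap among its leading genes, so adding it had to raise striatal Gfap. Vim and Fabp7 were also higher in it than in striatal astrocyte-like cells. Gfap was then higher in striatum by a log2 change of 1.03 (SE 0.84, edgeR adjusted p = 0.46), Vim by 1.14 and Fabp7 by 0.86, with 0 members and 16.8% of genes called. In the 2 sequencing batches that held pools of both regions, the log2 CPM of Gfap was lower in striatum by -5.46 for the early pools 2 and by -0.20 for the late pools 2. With the sequencing batch as a block in place of the kit class, a fit in which each of the other 4 batches held 1 region, Gfap stood at -3.21 (SE 0.78, edgeR adjusted p = 0.0856), Vim at -2.62, Lgals1 at -2.25, Fabp7 at -1.90 and S100a10 at -1.46, and 0 of 5 members and 0.501% of genes were called. No term for a different late-against-control change in the 2 regions was called for the 5 members, beside 0.0% of 7989 genes and 505 genes at an unadjusted p under 0.05.

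The share of carriers counts each cell once, whatever its number of UMIs. In cells thinned to 1000 UMIs, in the draw made for this test, Gfap was carried in striatum and motor cortex by a mean of 1.67 ± 0.929% against 5.08 ± 4.64% of cells (6 pools each, two-sided exact permutation p = 0.0303, adjusted p = 0.319 over 9690 genes). In the draw behind the shares given by pool the means were 2.26 ± 1.01% and 5.11 ± 4.25% (exact permutation p = 0.0693). In the draw of the test Vim was at 4.58 ± 2.2% against 4.11 ± 3.02%, Fabp7 at 11.2 ± 4.06% against 14.6 ± 5.69% and Lgals1 at 2.37 ± 1.77% against 3.29 ± 2.12%. None of the 6 members tested and 0.0% of all genes passed after adjustment by this permutation test, while 1194 genes had an unadjusted p under 0.05. The smallest p that 6 against 6 pools can give is 0.00216, and at least 420 genes had to reach it before any could pass, where 235 did. The count of 0 therefore says little about a single gene. Without the early pools Gfap was at 1.11 ± 0.424% against 2.53 ± 0.34% in the draw of the test (4 pools each, exact permutation p = 0.0286, the smallest that 4 against 4 pools can give). In the other draw it was at 2.32 ± 1.13% against 2.85 ± 0.373% (exact permutation p = 0.429), and the regions overlapped, so this difference depended on the draw. Without the early pools, in the draw of the test, Vim was at 5.31 ± 2.43% against 3.31 ± 2.18%. Fabp7 was at 11.98 ± 4.73% against 11.62 ± 2.35% and Lgals1 at 3.11 ± 1.7% against 2.85 ± 2.06%, so these 2 turned direction. With the Thbs4-Gfap cluster counted, Vim was called (14.9 ± 5.0% in striatum against 4.11 ± 3.02%, 6 pools each, exact permutation adjusted p = 0.0483), where 4.48% of 9772 genes were called, all 438 of them at the smallest p. That cluster came from striatum alone and carried Vim far more often than astrocyte-like cells did. Adding it had to raise the striatal share of Vim, so this call is no evidence of a region difference.

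The Thbs4-Gfap cluster carried the filament genes at every stage. Gfap was found in 19.1% and 29.9% of its cells in the control pools, 23.3% and 22.1% in the early pools and 32.3% and 26.6% in the late pools. The level was 488.4 and 287.5 CPM, 312.8 and 311.1 CPM, and 660.3 and 468.7 CPM, with the control pools overlapping both other stages. Vim was carried by 33.0% to 60.6% and Fabp7 by 27.7% to 55.1% of cells, and no cell carried Lcn2. The late change in Gfap was 0.59 against control (SE 0.18, unadjusted p = 0.00594, edgeR adjusted p = 0.945) and 0.56 against early (SE 0.19, edgeR adjusted p = 0.744). None of the 4 members tested was called, beside 0.0393% of 7625 genes for early against control, 0.0262% for late against control and 0.0% between the trained stages. Without control pool 1 Fabp7 was called lower in the early (-0.77, 0.66% of genes called) and the late stage (-0.99, 0.727%), against a single control pool whose spread is assumed to be that of the other groups. The 10 members were left out of the genes clustered on, and Gfap was one of the genes that set this cluster apart from the others.

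In other glia the members were tested in oligodendrocyte precursor-like, committed oligodendrocyte precursor-like, microglia-like and ependymal-like cells. None of the 78 tests of a member in a class and stage comparison passed with edgeR or with DESeq2, and by edgeR the share of all genes called was 0.0% in each motor cortex class and in striatal microglia-like and ependymal-like cells. In striatal oligodendrocyte precursor-like cells it was 0.0563% for early against control, 0.0751% for late against control and 0.0282% between the trained stages, and in striatal committed precursors 0.0751%, 0.0601% and 0.015%. With no filter on low counts Fabp7 was called in oligodendrocyte precursor-like cells of motor cortex (early against control, 0.91, edgeR adjusted p = 0.0446, 0.0718% of genes) and Serpina3n in committed precursors (5.13, edgeR adjusted p = 0.000435, 0.0107%). In motor cortex oligodendrocyte precursor-like cells Fabp7 was at 818.7 and 536.7 CPM in the control pools, 815.9 and 1157 CPM in the early pools and 1098 and 880.1 CPM in the late pools. The change of Fabp7 from control to early was 0.88 (SE 0.24, unadjusted p = 0.00262, edgeR adjusted p = 0.99). Serpina3n was at 38.1 and 33.3 CPM, 31.96 and 108.6 CPM, and 36.8 and 43.3 CPM, so that early pool 2 stood apart again, and its change from control to early was 1.03 (SE 0.48, edgeR adjusted p = 0.99).

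Gfap was carried by 10 of 1163 oligodendrocyte precursor-like cells of that pool and by none in the other 5 motor cortex pools. In committed oligodendrocyte precursor-like cells Serpina3n was carried by 6.32% of 190 cells in early pool 2 and by 0.0% to 1.79% elsewhere in motor cortex. Without early pool 1, which leaves early pool 2 as the only early pool and takes the spread from the other groups, Serpina3n was called higher in oligodendrocyte precursor-like cells (1.71, 0.106% of genes called) and in committed precursors (6.11, 0.115%). In the same fits it was called lower in the late than the early stage in committed precursors (-4.58, 0.172%), and Vim was called higher in microglia-like cells (2.15, 0.489%). These calls describe early pool 2 and not the stage. In ependymal-like cells Hspb1 was called higher in the late stage without control pool 1 (2.06, 0.588%) and without late pool 1 (2.05, 0.309%), each with 1 pool left in that arm and the spread taken from the other groups. Oligodendrocyte-like cells numbered 193 and 169 and were too few per pool to test.

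In single cells, 61.0% of the 3072 motor cortex astrocyte-like cells carried none of the 10 genes, 939 carried 1, 207 carried 2 and 51 (1.66%) carried 3 or more. In striatum 65.9% of 2104 cells carried none and 21 (0.998%) carried 3 or more, with a maximum of 4. In the Thbs4-Gfap cluster 20.4% carried none and 154 cells (14.5%) carried 3 or more. Among motor cortex pools, cells with 3 or more members made up 8.54% of early pool 2 (14 of 164) and 7.74% of control pool 1 (13 of 168), and 0.0% to 1.05% of the other 4 pools. In cells thinned to 1000 UMIs early pool 2 stayed at 6.71% (11 cells) and control pool 1 fell to 1.19% (2 cells). Of the 13 cells of control pool 1, 11 belonged to the small cluster, whose cells reached 45119 UMIs. With cells picked singly and not by cluster, 24 of 2225 motor cortex cells (6 of 114 in early pool 2) and 66 of 2166 striatal cells carried 3 or more. Of these 2225 and 2166 cells, 2214 and 1621 were astrocyte-like by cluster, so the order of the regions depended on how astrocytes were picked.

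**Figure D5:**
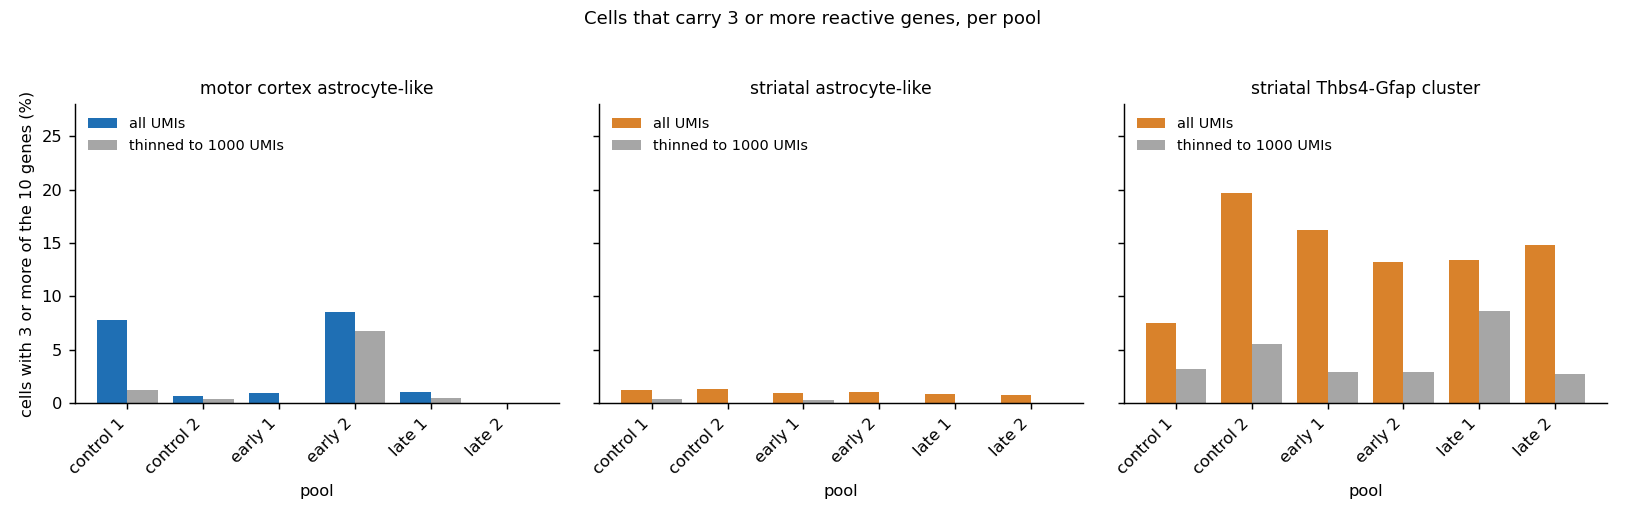
Share of cells that carry 3 or more of the 10 genes in each pool, in percent, with all UMIs (coloured bars) and after thinning each cell to 1000 UMIs (grey bars), for astrocyte-like cells of motor cortex and striatum and for the Thbs4-Gfap cluster. After thinning, motor cortex early pool 2 stayed at 6.71% and no other astrocyte-like pool passed 1.19%.

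The 14 cells of early pool 2 came from both hemispheres. One contralateral cell of 14011 UMIs carried all 10 members, with 234 UMIs of Vim, 121 of Fabp7, 108 of Gfap, 57 of Lgals1, 18 of S100a10, 5 of Lcn2, 4 of Hspb1, 3 of Serpina3n and 2 each of Cd44 and Osmr. A second contralateral cell of 7852 UMIs carried 8 members, with 70 UMIs of Gfap and 54 of Vim. All 12 astrocyte markers were present in the 14 cells together, at a summed 20440 CPM against 25640 CPM in the other 150 cells. The 8 macrophage, 8 vascular smooth muscle, 6 T or NK cell and 6 neutrophil markers were all at 0 in them, 8 of 10 microglia markers were at 0 (2 UMIs), and 7 of 8 endothelial markers were at 0 (1 UMI). Cycling progenitor markers stood at 241.9 CPM (14 UMIs, 7 of 8 markers present) against 3.94 CPM (1 UMI) in the other 150 cells.

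Other genes of published reactive astrocyte lists were also read in these 14 cells. The 6 further pan-reactive genes (Steap4, S1pr3, Timp1, Cxcl10, Cp and Aspg) summed to 570.1 CPM with Steap4 at 0, against 55.2 CPM in the other 150 cells. The 13 genes of the A1-type list stood at 483.7 against 114.3 CPM and the 12 further genes of the A2-type list at 794.7 against 94.6 CPM. The 12 astrocyte homeostasis genes, which include the glutamate transporters Slc1a2 and Slc1a3, stood at 34810 against 38930 CPM. Cells with 3 or more members were picked by the genes they carried, so these sums are a description of 14 cells from 1 pool.

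Gfap and Vim were carried together by 19 motor cortex astrocyte-like cells after thinning to 1000 UMIs, where the product of their shares within each library gives 4.89 (ratio 3.89, exact Poisson interval 2.34 to 6.07 for counting error, in 7 libraries). In early pool 2 the ratio was 3.92 (10 cells) and without that pool it was 3.85 (9 cells against 2.34). In striatum 6 cells carried both against 1.85 (ratio 3.25, interval 1.19 to 7.07). In the Thbs4-Gfap cluster the ratio was 1.29 (79 cells against 61.1) and in ependymal-like cells 1.10 (19 against 17.2). Without thinning, the ratios were 3.14 in motor cortex and 2.82 in striatum. Cells are not replicates, and these intervals cover no spread between mice.

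Other pairs differed. Gfap and Osmr met in 7 motor cortex cells against 0.975 (ratio 7.18), Gfap and Serpina3n in 6 against 1.24, and Vim and Lgals1 in 12 against 3.50. Gfap and Fabp7, by contrast, met as often as the product of their shares outside early pool 2 (12 cells against 12.1, ratio 0.989), below it in the Thbs4-Gfap cluster (38 against 58.3, ratio 0.652) and above it in early pool 2 (10 against 5.31, ratio 1.88). Gfap and S100a10 met in 22 cells of the Thbs4-Gfap cluster against 10.3 (ratio 2.13).

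Among 7230 genes in 5176 thinned astrocyte-like cells of both regions, the odds of carrying Vim were 9.27 times as high in cells with Gfap as in cells without, within libraries, and 3 genes ranked above Vim. These were Apoe, Cst3 and mt-Cytb, which all 150 Gfap-carrying cells carried and nearly all other cells too, so that their odds ratio has no upper bound. Plec (plectin, which links intermediate filaments to other cell structures) followed at 5.06 and C4b (complement C4) at 3.86, or 4.22 and 4.19 without early pool 2, where the ratio for Vim was 6.35. Over the 12 pools, the genes with the highest Pearson correlation with Gfap in log2 CPM were Tubg1 (0.80), Tmem176a (0.79), Tfg (0.79), Ppm1d (0.78) and Tspo (0.78). Without motor cortex early pool 2 the values over 11 pools were 0.85 for Tubg1, 0.70 for Tmem176a, 0.49 for Tfg, 0.52 for Ppm1d and 0.03 for Tspo. The points share library depth and kit, and these values describe likeness of pattern only.

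The other reactive lists and the pathway around Osmr were read in the same fits. Of the 12 genes of the interleukin-6 family list (ligands, receptors, Jak1, Jak2, Stat3 and Socs3), 6 could be tested between regions, with 0 called in either direction and a median log2 change of -0.15. All 12 astrocyte homeostasis genes were tested between regions, with 0 called and a median of 0.12, and late against control in motor cortex 12 of 12 had a positive sign, with 0 called and a median of 0.75, beside 0.02 over all genes. In the same comparison 4 microglial inducers were tested, with 0 called and a median of -2.87, where 0.575% of 8703 genes were called. Control pool 1, with its astrocyte marker sum of 8879 CPM and its microglia marker sum of 4237 CPM, is in that comparison, and its part was not tested. Of the 5 microglial inducer genes, 2 were tested between regions and C1qc, a complement chain made by microglia, was called lower in striatum (-2.33, SE 0.48, edgeR adjusted p = 0.00767). Between regions 4.82% of 7989 genes were called. The microglia marker sum of astrocyte-like cells was 71.9 to 203.8 CPM in the striatal pools and 101.3 to 4237 CPM in the motor cortex pools, and its part in that call was not tested. Between regions none of the 6 further pan-reactive genes, 2 of the 13 A1-type genes and 1 of the 12 further A2-type genes had enough counts to be tested, and none of these was called.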

How the data were processed

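The deposited matrices hold whole UMI counts for each gene in each barcode, produced by the authors using Cell Ranger 3.1.0 on GRCm38 per the submitters' processing notes (3.0.2 per the file headers). The annotation and the cell calling settings were not given in the sources used here. The right hemisphere of striatal control pool 1 was not analysed here. Barcodes with at least 500 genes and 1000 UMIs and at most 20% mitochondrial UMIs were kept, and the top Scrublet scores (0.8% per 1000 barcodes, 5103 barcodes) were removed in each library as presumed doublets. Cells of each region were clustered with scanpy 1.11.5 (2000 variable genes without the 10 members and the reactive lists, 40 components, 20 neighbours, Leiden resolution 1.5) and named where at least 3 markers of a class were found in at least 20% of cells at 2-fold or more. A cluster stayed unnamed if a second class also had at least 3 such markers and a marker score near that of the first. Most pairs of neuronal and progenitor classes and pairs of oligodendrocyte classes were exempt. This condition left the Thbs4-Gfap cluster unnamed (score 1.872 for astrocyte and 1.433 for neural stem cell). Very small clusters, and shallow ones with no class marker among their leading genes, also stayed unnamed.

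Counts were summed per pool and class (per library for hemispheres) and tested with edgeR 4.0.16 (filterByExpr, TMM, quasi-likelihood, Benjamini-Hochberg threshold 0.05) in R 4.3.3, with DESeq2 1.42.0 as an alternative. Shares of carrying cells were compared after thinning each cell to 1000 UMIs with an exact permutation test over pools. Pools with at least 20 cells of a class entered (10 for libraries). CPM in fits and likeness used a prior count of 2. The scripts were tested on simulated data. Free RNA can give UMIs in cells that do not express a gene, so shares of Gfap and Cd44 are printed beside a background class in both regions. Fabp7, Lgals1, S100a10 and Hspb1 have such a class in motor cortex alone, and Vim, Osmr, Serpina3n and Lcn2 have none. The members, lists and tests were chosen with earlier results of these data known. Named genes are the 10 members, up to 5 list genes called per comparison, and the 5 genes outside the members most like Gfap over pools and in cells.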

Additional observations from a re-analysis of the deposited data

Results flagged for a closer look

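The share of cells that carry a gene was checked in astrocyte-like cells of each region and in the Thbs4-Gfap cluster of striatum for a pool far from the other 5, with Dixon's criterion (gap to the nearest pool over the whole range, 0.625 for 6 pools). Of 28 such checks, 4 passed, all in astrocyte-like cells. Chance passes about 1 in 20, but values of motor cortex early astrocytes were known when the genes were listed, so the number of passes is not read against that rate. Serpina3n stood at 6.71% in motor cortex early pool 2, where the nearest pool had 2.38%. Lcn2 stood at 2.44% in the same pool and at 0.0% in the others. Hspb1 stood at 9.52% in motor cortex control pool 1, where the nearest pool had 1.83%, and 13 of its 16 carriers there lay in the small cluster with few astrocyte markers. By level the small cluster was at 79.5 CPM and the other cells of that pool at 70.6 CPM. Osmr stood at 0.0% in striatal control pool 1, analysed from its left hemisphere alone, and the nearest pool had 1.33%.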

How the results depend on the processing

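The replicate numbers follow the order of deposit and pair no pools, but pools shared sequencing batches. With the batch as a replicate block, added after seeing the data, 0 members and 40 genes were called between regions, and Gfap stood at -3.21. Within 1 region that block leaves no residual degrees of freedom, so the stages could not be fitted with it. The hemisphere comparison has the pool as a block, and with no replicate block 0 members were called and Gfap stood at 1.90 (edgeR adjusted p = 1). The number of members called was 0 as reported in each comparison between regions, hemispheres and, for late against control in motor cortex, stages. With no filter on low counts it was 4 between regions (3.69% of all genes called) and 1 for late against control in motor cortex (2.51%). In other glia it was 2 (0.0718% and 0.0107%) and between hemispheres 2 (0.0805%). These fits held motor cortex early pool 2. Leaving out 1 pool at a time gave 0 to 1 between regions, 0 to 3 for late against control in motor cortex, 0 to 4 in other glia and 0 to 2 between hemispheres. Between regions it was 1 in the class B pools (7.78% of all genes called) and 1 without the small cluster (10.2%), both added after seeing the data. It was also 1 for the share of carriers with the Thbs4-Gfap cluster counted (Vim, where 438 of 9772 genes were called against 0 as reported). That setting adds a striatal cluster led by Thbs4 and Gfap and rich in Vim, so higher striatal values of Gfap and Vim were built in. It also turned Gfap to 1.03 in level and to 2.74 percentage points in share. With presumed doublets kept Hspb1, late against control, stood at -0.27. Leaving out 1 pool at a time, it ranged from -3.09 to 0.022, and was 0.022 without motor cortex control pool 1 and 0.018 without late pool 1. The hemisphere changes ranged from -0.24 to 1.62 for Gfap, -0.13 to 0.85 for Lgals1 and -0.072 to 0.99 for Fabp7, with the lowest values without early pool 2. Another random thinning draw, added after seeing the data, gave -2.86 percentage points for the share of Gfap carriers between regions, against -3.42 (exact permutation p = 0.0693 against 0.0303). The causes were not tested. All genes called between regions numbered 385, against 859 with no filter, 174 with no kit covariate, 736 with presumed doublets kept, 862 without motor cortex control pool 1, 223 without control pool 2, 231 without striatal control pool 2, 809 without the small cluster, 703 in the class B pools, 117 without the early pools and 1550 with the Thbs4-Gfap cluster counted. The stricter cell filter left too few cells per pool in striatal astrocyte-like, oligodendrocyte precursor-like and Thbs4-Gfap cells, in motor cortex committed precursors and for the regions, and was not run there. Each group had 2 pools, and a striatal pool held from 4 to 31 Gfap UMIs.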
